A study of Bos taurus with 96 samples.

Results

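Hereford and Angus are British beef breeds of Bos taurus, and this account compares the gene expression of their fat. Of the 96 arrays of the series, 40 were used for it, namely 20 labelled Hereford and 20 labelled Angus, with 4 of each breed in each of 5 fat depots. The depots were the marbling fat inside the muscle (IMF), the subcutaneous fat of the rump (SC), the fat between muscles (Inter), and the fat around the kidney (Kid) and of the omentum (Omen). All were from steers of 26 months that had been on pasture after weaning and then spent 259 d in a feedlot. The members were chosen by the depot and breed given in the sample labels, and the difference was fitted over the 60 fat arrays, in which the 20 Wagyu x Angus arrays formed a further breed level. The longissimus dorsi muscle (LD) of 24 Hereford and Angus samples, on pasture or on supplement after weaning, was used for comparison only.

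The major histocompatibility complex (BoLA in cattle) is among the most variable regions of the genome. It encodes the class I and class II molecules that present peptides to T cells, and the related ULBP proteins are ligands of an activating receptor of natural killer cells. Coat colour also separates these breeds, and TYRP1 is one of the enzymes that make black pigment.

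Each array measured 1 RNA sample in 1 colour. The level given here is log2 of the processed spot signal minus the 75th percentile of that array, so that a level of 0 is as bright as the 75th percentile and a difference of 1 is a doubling. The share of probes well above background was 87.0% to 98.6% on the Hereford arrays and 88.2% to 99.6% on the Angus arrays, and the correlation between arrays of the same breed and depot was 0.927 to 0.989. Across depots the arrays share steers, and the labels do not say which arrays come from the same animal. By the study's methods the 20 fat arrays of a breed come from at most 5 steers, by 3 sires, so the unit that varies is the steer and not the array. The labels do not name the sire, and differences between breeds and between these few sires cannot be told apart. The p-values and standard errors over the 5 depots treat the 20 arrays of a breed as independent and are therefore too small, whereas the steers within a depot are different animals. The tissue samples hold several cell types, so that fewer cells of a type and less RNA per cell cannot be told apart. Over all depots the scan days were balanced, with 5, 7 and 8 arrays of each breed on the 3 days. Within single depots they were so in IMF and Inter alone. In Omen all 4 Hereford arrays were scanned on day 3 and the Angus arrays 2 each on days 2 and 3. In SC 1 Angus array was scanned on another day than the other 7 arrays, and in Kid 1 Hereford array was of day 1 and 3 of day 2, against 2, 1 and 1 Angus arrays of days 1, 2 and 3.

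Some arrays lay with the other breed. A breed score was given to each fat array, as its mean position between an Angus mean (-0.5) and a Hereford mean (0.5). Its probes differed by more than 1 in log2 and passed the test in the other 4 depots, and both means were of those depots. The level of the array's own depot was not removed, so 0 need not be the midpoint within a depot. The probes numbered 9 in Omen, 15 in IMF, 34 in Kid, 36 in Inter and 47 in SC. In Kid the Angus scores were -0.82 to -0.55 and the Wagyu x Angus scores -0.90 to -0.25. The scores of the Hereford arrays were -0.61, 0.46 and 0.88 (lowest, median and highest), and 17 of 20 were above 0. The Angus scores were -0.82, -0.47 and 0.55, and 2 of 20 were above 0. The array labelled Hereford in SC at slide 17, position 2 had a score of -0.61, and the array labelled Angus in SC beside it, at position 1, had 0.55. On slide 4 the array labelled Hereford in Kid at position 2 had a score of -0.36 and was closest to the mean of Inter (r = 0.991, against 0.982 for Kid), and the array labelled Angus in Inter at position 3 had 0.41 and was closest to the mean of Kid (r = 0.981, against 0.980 for Inter). Other arrays were near 0, such as Hereford arrays of Kid (-0.10 at slide 22, position 4, and 0.11 at slide 21, position 1) and an Angus array of SC (-0.07 at slide 15, position 4). No array was moved to another group. Results are given with all arrays as labelled and, as a choice made after the scores were seen, without the 4 arrays named above on slides 4 and 17. Since the score uses the same contrast, a larger count or difference, a smaller p or a clearer gap between the breeds without them is built in and is not independent support. Whether the labels of these 4 arrays are right was not tested.

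**Figure D1:**
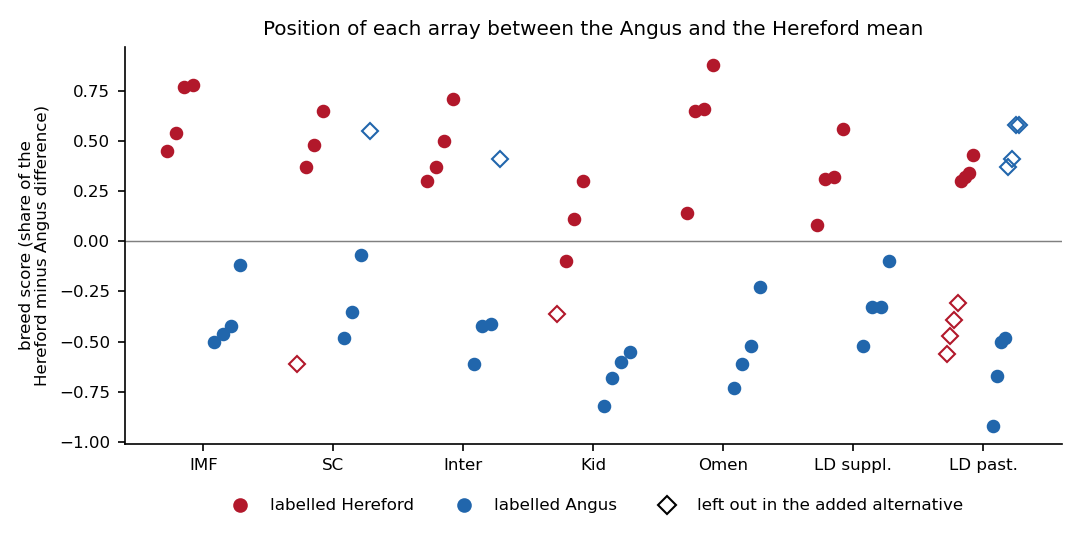
Breed score of each array (vertical axis) by depot and for LD. For the fat arrays -0.5 is the Angus mean and 0.5 the Hereford mean of the score's probes in the other 4 depots. For LD 0 is the mean of the Hereford and Angus LD arrays on supplement. Each symbol is 1 array. Of the 20 Hereford fat arrays 17 lie above 0 and of the 20 Angus fat arrays 2 do. Open diamonds are the 4 fat arrays and the 8 LD arrays that lie with the other breed.

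Over the 5 depots, Hereford fat had higher signal at probes of immune recognition genes (BOLA-DQB, ULBP3, ULBP27, BOLA-NC1 and BOLA) and lower signal at probes of TYRP1, of the protease inhibitor PI3 and of the autophagy receptor SQSTM1. For BOLA-DQB 1 of 2 probes passed and for SQSTM1 1 of 3. A probe of FADS2, a desaturase of polyunsaturated fatty acid synthesis, was higher in Hereford by less. With the slide as a fixed block ULBP3, BOLA-NC1, TYRP1, PI3 and SQSTM1 kept their calls (limma, adjusted p = 0.0093, 0.03, 0.029, 0.044 and 0.018), whereas BOLA-DQB (0.072), BOLA (0.055), ULBP27 (0.058) and FADS2 (0.18) did not pass. With normexp, a background correction that adds an offset of 50, the difference was over 1.5 times smaller at 14 of the 24 genes with the highest and lowest values, and ULBP27, VIT, RERGL, BCL2L14, TEX12, LTC4S and LOC280930 did not pass. Of 34227 probes 194 passed the limma test at an adjusted p under 0.05 (0.567%), 111 higher in Hereford (0.324%) and 83 lower (0.242%). Without the 4 arrays above, 625 probes passed (1.83%), 192 of the 194 among them. The difference of the 194 probes was 0.18 to 3.74 in log2 in absolute value, with a median of 0.56, and exceeded 1 at 39. It had the same sign in all 5 depots at 172 of them (88.7%, against 8.07% of all probes), which is a description, since the same arrays gave both the call and the signs. Names could be given to 125 of the probes, for 102 genes. Of these genes 69 had several probes, and at 54 of the 69 every probe had the same sign. At 50 a single probe passed.

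**Figure D2:**
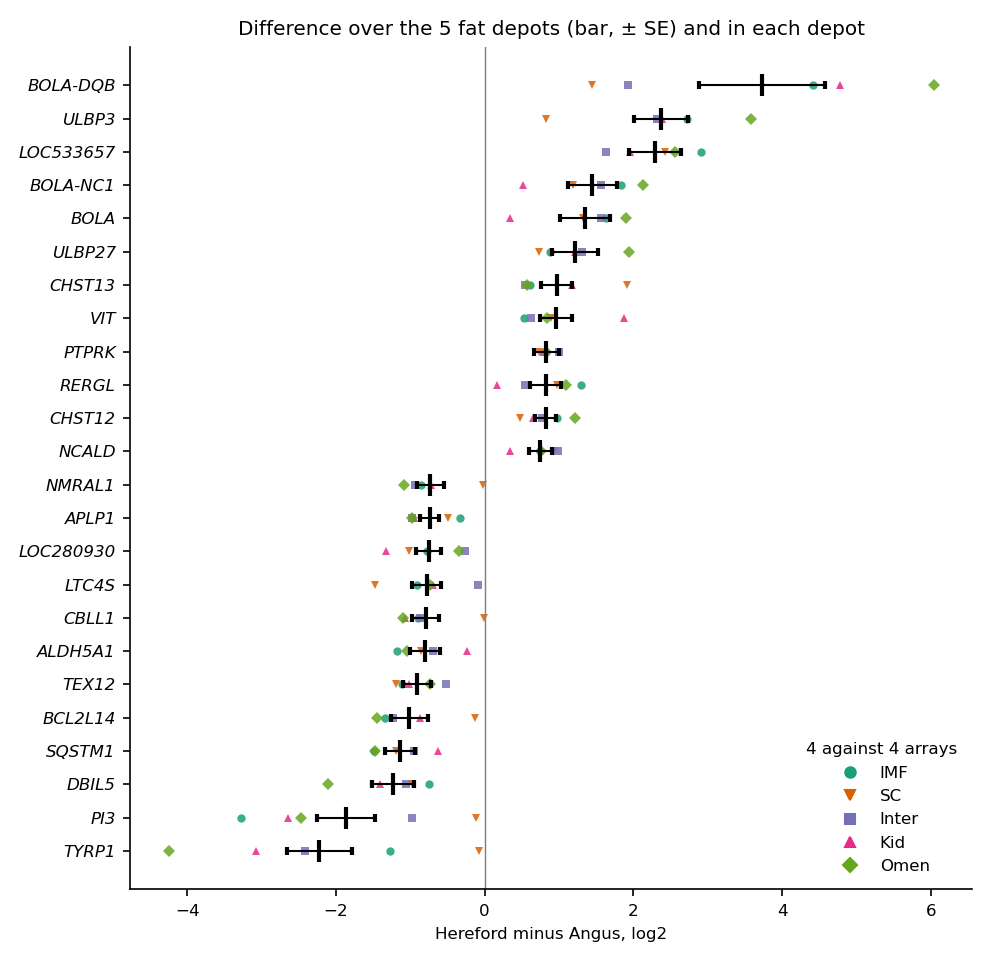
Hereford minus Angus differences (log2, horizontal axis) of the 12 genes with the highest and the 12 with the lowest values by the rule for named genes. The black bar is the difference over the 5 depots with its standard error, and each coloured symbol is the difference in 1 depot (4 arrays against 4). All symbols of the upper 12 genes lie to the right of 0 and those of the lower 12 to the left, with the SC values of TYRP1, PI3, CBLL1 and NMRAL1 near 0. The SC values include the arrays at slide 17, positions 1 and 2, which lie with the other breed.

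BOLA-DQB (probe A_73_P336561) is the beta chain of a class II molecule, and its probe was well above background on 15 of the 20 Hereford, 12 of the 20 Angus and 2 of the 20 Wagyu x Angus arrays. Its level was -8.65, -0.65 and 1.22 (lowest, median and highest) on the 20 Hereford arrays and -9.46, -6.33 and 0.71 on the 20 Angus arrays. The Hereford arrays were either bright, with 15 at -1.36 or above, or dim, with 5 at -6.77 or below. In IMF the 4 Hereford levels were -8.61, -1.14, -0.96 and -1.36, and the 4 Angus levels were -9.46, -9.11, -3.36 and -7.84. In Omen the Hereford arrays were at 0.04, 0.76, -0.59 and 0.66 and the Angus arrays at -8.22, -4.84, -4.18 and -6.04, without overlap. The 2 Angus arrays above 0 were those of SC and Inter that lie with the other breed, at 0.71 and 0.37. The difference was 3.73 ± 0.85 (SE over 20 arrays of each breed, limma, adjusted p = 0.02), and 5.06 without the 4 arrays (limma, adjusted p = 7.5e-06). With the slide as a fixed block it was 3.49 and did not pass (limma, adjusted p = 0.072), and with normexp it was 2.11 (limma, adjusted p = 0.0017). As part of the arrays were at background, none of these is a measured fold. The Wagyu x Angus levels were -9.80, -8.44 and -4.24. A second BOLA-DQB probe differed by -0.40 (limma, adjusted p = 0.39), so that the probes of this gene did not move together. BoLA genes are a family of near-identical members whose transcripts the probes may share, and which member a probe reads is uncertain.

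The class I genes BOLA-NC1 and BOLA present peptides from inside the cell. BOLA-NC1 had levels of 4.87, 5.81 and 6.77 in Hereford and of 1.21, 4.60 and 6.42 in Angus. The Angus arrays were of different kinds. In IMF, SC, Inter and Omen 1 Angus array each was at 1.21, 1.60, 1.26 and 1.37, well below the others, and no Kid array was. The labels do not say whether these 4 arrays are of the same steer. The difference of BOLA-NC1 was 1.45 ± 0.33 (limma, adjusted p = 0.018), and it was smallest in Kid (0.52) and largest in Omen (2.13). BOLA had levels of 6.22, 7.04 and 7.87 in Hereford and of 2.38, 6.16 and 7.73 in Angus, a difference of 1.35 ± 0.33 (limma, adjusted p = 0.034), whose call was lost in 9 of 40 fits that left out 1 array. Its low Angus arrays were also 1 each in IMF, SC, Inter and Omen, at 2.69, 2.53, 2.38 and 2.53. A second BOLA probe passed as well (1.09, limma, adjusted p = 0.017), and 2 others differed by 0.17 and 0.08.

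Of the 46 probes on the list of antigen presentation genes 4 passed (8.70%, against 0.567% of all probes), all higher in Hereford. The median difference of the list was -0.022, close to the 0.015 of all probes. B2M, the light chain shared by class I molecules, differed by 0.02 to 0.15 at its 5 probes, and CD74, the class II chaperone, by -0.08 to -0.05. TAP1 and PSMB8, of the peptide supply, differed by 0.00 to 0.15 and by -0.06 to 0.10. None of these passed the test. BOLA-DQA5, a class II alpha chain, differed by 2.29 ± 0.67 (limma, adjusted p = 0.11), which passed without the 4 arrays (3.18, limma, adjusted p = 0.0013). Of the 3 JSP.1 probes (class I), 1 was at 0.96 (limma, adjusted p = 0.054) and the others at -1.32 and -0.41.

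ULBP3, a ligand of the natural killer cell receptor NKG2D, had levels of -3.55, -0.15 and 1.41 in Hereford and of -4.07, -3.38 and 0.78 in Angus. In Omen the 4 Hereford levels of ULBP3 were 0.39, 1.02, 1.01 and -0.77 and the 4 Angus levels -3.46, -3.31, -3.73 and -2.17, without overlap. The highest Angus array (0.78, in SC) and the lowest Hereford array (-3.55, in Kid) were among the 4 arrays that lie with the other breed, and without them the ranges were -2.60 to 1.41 and -4.07 to -1.45. The difference was 2.37 ± 0.36 (limma, adjusted p = 2e-04), or 5.15-fold, and a second probe with this symbol, A_73_P033501, also passed (1.99). Symbols were given probe by probe, and that of A_73_P033501 is from the study's list. Its transcript (NM_001111069) also has 2 probes without a symbol that passed, A_73_P251776 (3.41) and A_73_P193947 (1.89), the latter named here after its values were seen. ULBP27, of the same family, had levels of -3.44, -1.56 and -0.67 in Hereford and of -4.58, -3.51 and 0.81 in Angus, a difference of 1.21 ± 0.31 (limma, adjusted p = 0.042). The call of ULBP27 was lost in 27 of 40 fits that left out 1 array and in 15 of 22 other settings, and its second probe did not pass (1.39, limma, adjusted p = 0.058). The Wagyu x Angus levels of ULBP3 were -4.26, -3.55 and -2.85. Members of this family may also share probes, and which of them is read is uncertain.

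LOC533657 had levels of -4.69, -1.16 and 0.76 in Hereford and of -5.21, -4.15 and -0.50 in Angus. All 3 of its probes passed, with a difference of 2.29 ± 0.35 at the largest (limma, adjusted p = 2e-04) and of 1.17 and 1.58 at the others. The depots were alike, with differences of 1.63 to 2.91, and in IMF the breeds did not overlap. Wagyu x Angus arrays were at -6.50, -4.60 and -3.45.

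**Figure D3:**
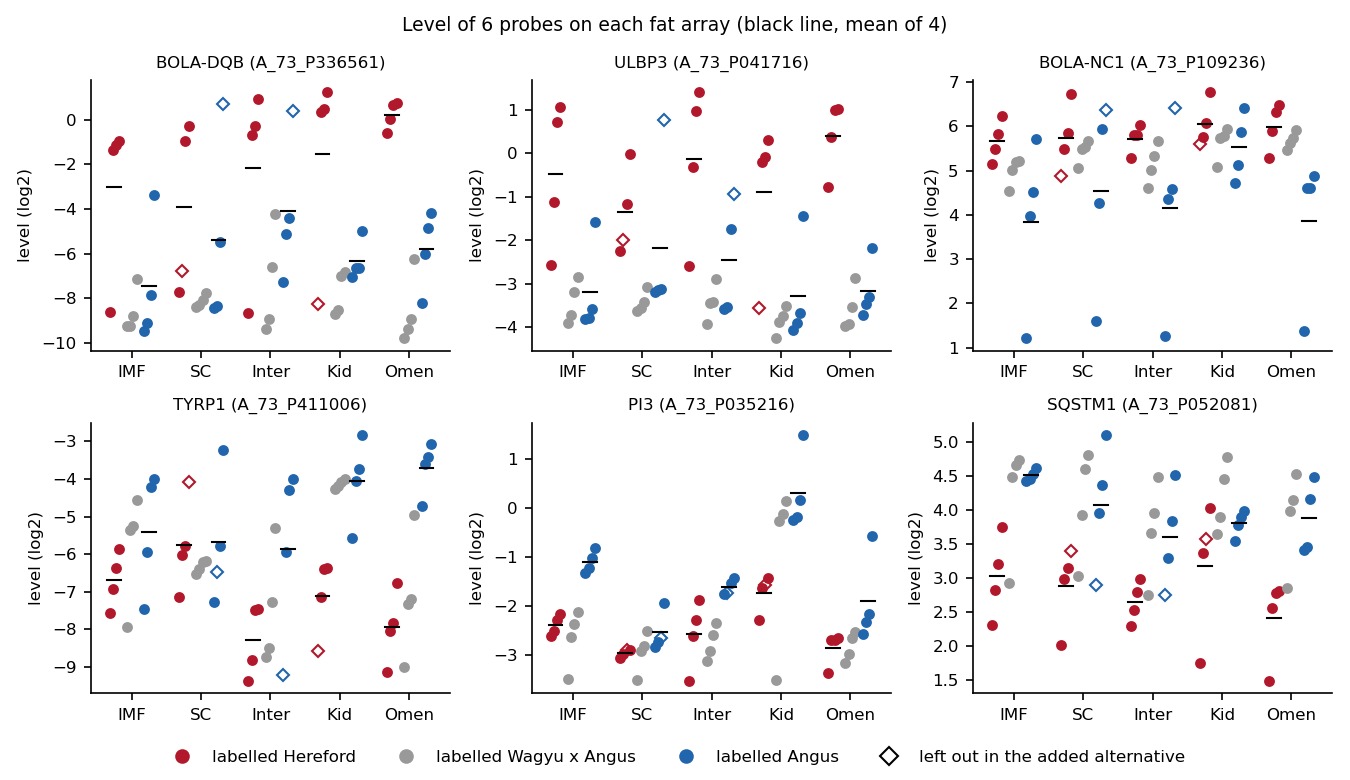
Levels (log2, vertical axis) of 6 probes on each of the 60 fat arrays by depot, with each symbol 1 array and the black line the mean of the 4 Hereford or Angus arrays. BOLA-DQB and ULBP3 are bright on most Hereford arrays, BOLA-NC1 is dim on 1 Angus array in each depot but Kid, and the PI3 probe shown (A_73_P035216), chosen after its values were seen, is lower in Hereford in every depot without overlap, which the PI3 probe named by the rule is not in SC and Inter. Open diamonds are the 4 arrays that lie with the other breed.

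Among the other genes higher in Hereford were a pair of sulfotransferases that add sulfate to chondroitin. CHST12 had levels of -1.42, -0.27 and 0.36 in Hereford and of -1.84, -1.30 and 0.01 in Angus, and the difference was 0.82 ± 0.14 (limma, adjusted p = 0.00045). Its other probe differed by -0.06. CHST13 had levels of -5.60, -3.58 and -2.67 against -6.34, -4.45 and -3.43 (0.97 ± 0.21, limma, adjusted p = 0.014), with the largest difference in SC (1.91), where the breeds did not overlap. It was dim, well above background on 19 Hereford and 15 Angus arrays, and with normexp its difference was 0.32. As part of the arrays were at background, these sizes are not measured folds. PTPRK, a receptor tyrosine phosphatase, differed by 0.73 to 1.0 in each of the 5 depots (0.83 ± 0.17, limma, adjusted p = 0.0084), and 10 of the 20 Hereford arrays were above all Angus arrays. VIT (0.96 ± 0.22), an extracellular matrix protein, RERGL (0.82 ± 0.21), a Ras-related protein, and NCALD (0.75 ± 0.15), a neuronal calcium sensor, also passed. In Kid the difference of VIT was 1.88, without overlap, whereas those of RERGL and NCALD were 0.17 and 0.34 there. The second RERGL probe differed by 0.02. Of the 5 NCALD probes 2 passed, and the others were at 0.16, -0.12 and -0.10. Of the 5 PTPRK probes 2 passed, and the others were at 0.25 to 0.29. With the slide as a fixed block PTPRK and RERGL did not pass (limma, adjusted p = 0.092 and 0.11), and leaving out 1 array lost the call of RERGL in 22 of 40 fits.

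TYRP1 (tyrosinase related protein, an enzyme of the melanosome) was among the genes lower in Hereford. Its levels were -9.38, -7.14 and -4.08 in Hereford and -9.22, -4.25 and -2.83 in Angus. The signal was weak, and the probe was well above background on 6 of the 20 Hereford and on 16 of the 20 Angus arrays. In Omen the Hereford levels of TYRP1 were -7.84, -6.76, -9.14 and -8.05 and the Angus levels -3.08, -3.41, -4.71 and -3.60. The breeds did not overlap in Kid and Omen and differed by only -0.07 in SC. That SC value includes the arrays at slide 17, positions 1 and 2, which lie with the other breed. The difference was -2.22 ± 0.44 (limma, adjusted p = 0.0057), and the second probe differed by -1.96 (limma, adjusted p = 0.021). As most Hereford arrays were not well above background, the size of the difference is not a measured fold, and it was -0.55 with normexp. In LD the TYRP1 difference had the other sign, with 0.43 on supplement (limma, adjusted p = 0.57) and 1.71 on pasture (limma, adjusted p = 0.0085), or 1.65 without the 8 arrays that lie with the other breed (limma, adjusted p = 0.058). Both fat probes that passed of the 22 on the list of pigmentation genes (9.09%, against 0.567% of all probes) were of TYRP1. The median difference of the list was 0.046, against 0.015 of all probes. MC1R, the receptor that directs the type of pigment, differed by 0.04 ± 0.13, its antagonist ASIP by -0.21 ± 0.37, PMEL by 0.16 ± 0.10 and MITF by -0.04 ± 0.09, and KIT by -0.24 and -0.04 at its 2 probes. None of them passed. SOX10 was well above background on 1 of 20 arrays of each breed at one probe.

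PI3 (elafin, an inhibitor of neutrophil elastase) was lower in Hereford at all 4 of its probes. The probe named by the rule had levels of -7.23, -4.40 and -2.42 in Hereford and of -5.69, -2.29 and 1.26 in Angus, a difference of -1.87 ± 0.39 (limma, adjusted p = 0.0084). Another PI3 probe (A_73_P035216) was the single probe of the 194 whose breeds did not overlap in any of the 5 depots, and it was named here after its values were seen. In Kid its Hereford levels were -1.58, -1.44, -2.28 and -1.63 and its Angus levels -0.18, 1.48, 0.15 and -0.24. In SC the gap was narrow, with the highest Hereford array at -2.90 and the lowest Angus array at -2.84. The difference of this probe was -1.13 ± 0.20 (limma, adjusted p = 0.0012), from -2.03 in Kid to -0.42 in SC. The Wagyu x Angus levels were -3.51, -2.64 and 0.13.

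SQSTM1 (p62), a receptor that brings cargo to autophagosomes, had levels of 1.48, 2.81 and 4.02 in Hereford and of 2.75, 3.97 and 5.10 in Angus, and 7 of the 20 Hereford arrays were below all Angus arrays. The difference was -1.14 ± 0.20 (limma, adjusted p = 0.00067), with -0.63 to -1.49 in the depots and no overlap in IMF and Omen. The other 2 SQSTM1 probes differed by -0.22 and -0.21 and did not pass, so that the lower signal was a property of 1 probe. LTC4S, which makes the leukotriene LTC4, differed by -0.78 ± 0.19 (limma, adjusted p = 0.033), from -1.48 in SC to -0.09 in Inter. CBLL1, an E3 ubiquitin ligase, differed by -0.79 ± 0.18 (limma, adjusted p = 0.021), passed at both probes, and did not overlap in IMF, Inter and Omen. Its difference in SC was -0.01, with the arrays at slide 17, positions 1 and 2, that lie with the other breed. APLP1, a relative of the amyloid precursor protein, passed at both probes, with -0.74 ± 0.13 (limma, adjusted p = 0.0015) and levels of -2.61, -1.58 and -0.61 in Hereford against -2.13, -0.78 and 0.35 in Angus.

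The rest of the 12 lowest were DBIL5 (-1.23 ± 0.28), of the acyl-CoA binding family, BCL2L14 (-1.01 ± 0.25), of the BCL2 family of cell death regulators, and TEX12 (-0.91 ± 0.19), of the synaptonemal complex. They also included ALDH5A1 (-0.80 ± 0.20), which oxidises succinic semialdehyde, LOC280930 (-0.75 ± 0.17) and NMRAL1 (-0.73 ± 0.18), a sensor of NADPH. Their adjusted p in the limma test was 0.0096 to 0.043. Leaving out 1 array lost the call of NMRAL1 in 25 of 40 fits, of BCL2L14 in 17, of ALDH5A1 in 14 and of LTC4S in 12. The second ALDH5A1 probe differed by -0.99 and did not pass (limma, adjusted p = 0.077), nor did the other 3 NMRAL1 probes (-0.56, -0.13 and -0.12). Of the 12 lowest, 7 did not pass with the slide as a fixed block, namely CBLL1, BCL2L14, NMRAL1, TEX12, DBIL5, LTC4S and LOC280930 (limma, adjusted p = 0.2, 0.2, 0.18, 0.09, 0.083, 0.065 and 0.052). DBIL5 was dim and was well above background on 8 Hereford and 14 Angus arrays, and TEX12 on 14 and 20. With normexp their differences were -0.18 and -0.27. NMRAL1 was brightest in Wagyu x Angus, at 1.67, 2.53 and 3.71, against -0.92, 1.05 and 2.33 in Hereford and -0.30, 1.53 and 3.02 in Angus.

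The smallest adjusted p belonged to a probe without a gene name, A_73_P034436 (RefSeq transcript NM_001098088). Its levels were -5.00, -4.15 and -1.87 in Hereford and -4.50, -2.26 and -1.25 in Angus, a difference of -1.70 ± 0.21 (limma, adjusted p = 9.7e-07). With normexp the difference was -0.97. Without the 4 arrays the Hereford levels of A_73_P034436 were -5.00 to -3.57 and the Angus levels -2.66 to -1.25, a gap that leaving out arrays by this contrast favours. The Wagyu x Angus arrays were at -2.78, -2.39 and -1.81, within the range of Angus. A_73_116304 was higher in Hereford by 1.69 ± 0.26 (limma, adjusted p = 2e-04), at -6.83, -4.62 and -3.18 against -7.66, -6.38 and -4.02. It was well above background on 18 Hereford and 8 Angus arrays, and with normexp its difference was 0.37. A_73_P149896 differed by 1.99 ± 0.31 (limma, adjusted p = 2e-04). A_73_107360 (-0.94 ± 0.15), A_73_116534 (-1.04 ± 0.18) and A_73_113764 (-1.25 ± 0.21) were lower, and the last did not overlap in IMF, SC and Inter. With normexp their differences were -0.70, -0.71 and -0.63. A_73_P104011 was higher in Hereford (3.74 ± 0.79, limma, adjusted p = 0.0093), was well above background on 15 Hereford and 5 Angus arrays, and was named here after its values were seen. A_73_P113046, chosen in the same way, was well above background on 1 Hereford and 15 Angus arrays and differed by -2.53 ± 0.54 (limma, adjusted p = 0.0096). As the dimmer breed was mostly at background, neither size is a measured fold, and with normexp they were 1.11 and -0.59. With the slide as a fixed block neither of the last pair passed (limma, adjusted p = 0.064 and 0.079).

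Of the 55 probes of fatty acid synthesis 1 passed (1.82%, against 0.567% of all probes), that of FADS2. FADS2 was at -2.26, -0.88 and 0.75 in Hereford and at -3.00, -1.21 and 0.19 in Angus, a difference of 0.54 ± 0.13 (limma, adjusted p = 0.038), or 1.45-fold, with 0.40 to 0.68 in the depots. FADS2 lay close to the threshold, and the call was lost in 17 of 40 fits that left out 1 array and in 14 of 22 other settings, the slide as a fixed block among them (0.47, limma, adjusted p = 0.18). The list's median was -0.084. FASN, the fatty acid synthase, differed by -0.26 to -0.10 at 4 probes and ACACA, which makes its substrate, by -0.34 to 0.20 at 3. SCD, the desaturase of oleic acid synthesis, was at 0.05 to 0.12. THRSP, which promotes lipogenesis, was at -0.84 to -0.76 at 4 probes with the same sign in all depots, and did not pass (limma, adjusted p = 0.24 to 0.31), while 1 of the 4 did without the 4 arrays (-0.97, limma, adjusted p = 0.045). Of CIDEA, a lipid droplet protein, 2 probes were at -1.16 ± 0.34 and -1.13 ± 0.34 (limma, adjusted p = 0.099 and 0.12) and 2 at 0.10 and -0.02. The first pair passed without the 4 arrays (-1.61 and -1.58, limma, adjusted p = 0.001 and 0.0014). ADIPOQ and LEP, which encode adiponectin and leptin, were at 0.17 ± 0.15 and at -0.27 ± 0.21 with -0.24 ± 0.23.

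No probe passed in 16 further pathway lists, which covered triacylglycerol synthesis, lipolysis, fatty acid uptake and oxidation, adipokines, adipogenic factors, brown and beige fat, interferon-stimulated genes, complement, chemokines, the IGF axis, detoxification, the circadian clock, growth and carcass genes, extracellular matrix, and immediate early with heat shock genes. Their medians were from -0.148 (complement, 15 of 54 probes positive) to 0.153 (immediate early and heat shock, 60 of 67 positive). The lists describe their members and were not tested as sets.

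**Figure D4:**
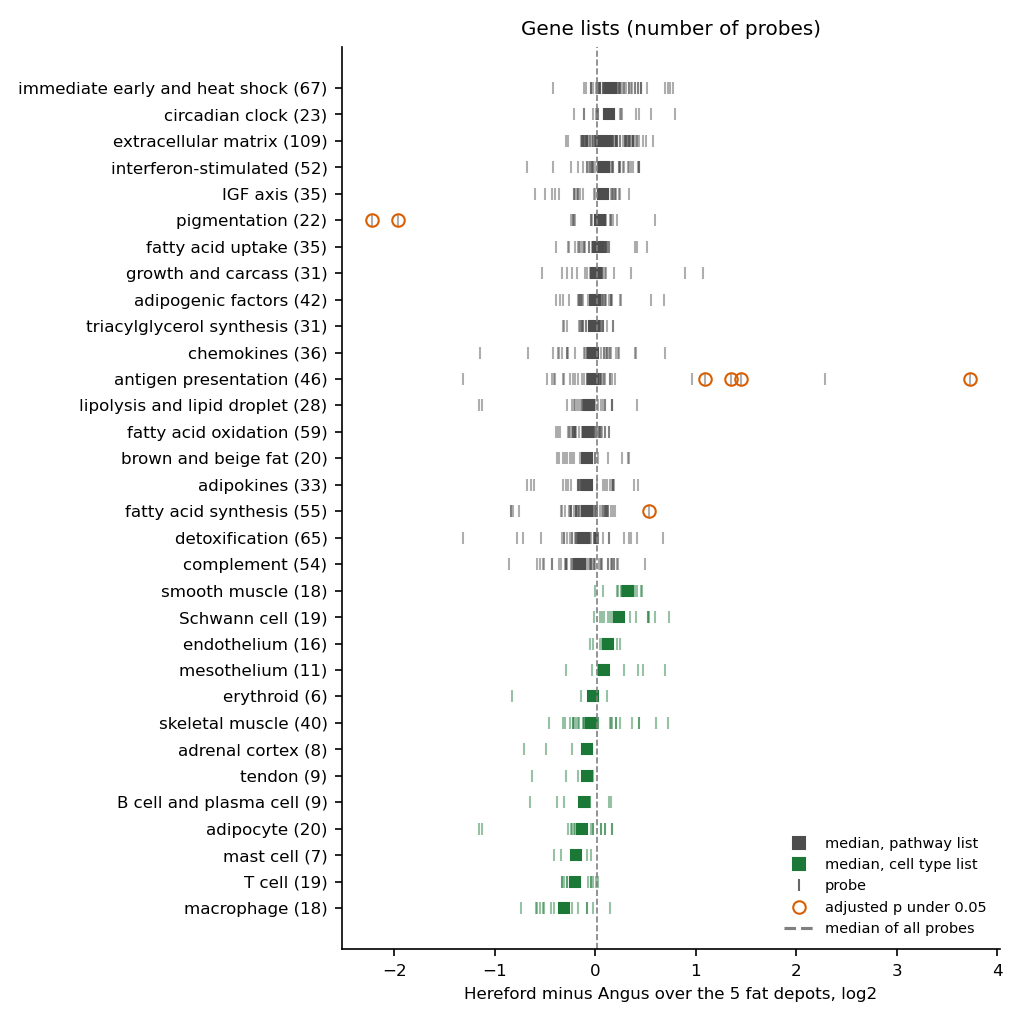
Hereford minus Angus differences over the 5 depots (log2, horizontal axis) of the probes of each gene list, with the number of probes in brackets, a tick for each probe and a square for the list's median. Circles mark the probes past the test, which were in the lists of antigen presentation (4), pigmentation (2) and fatty acid synthesis (1). The medians of the cell type lists ran from -0.309 (macrophage) to 0.327 (smooth muscle).

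None of the probes in the 13 cell type lists passed with all arrays. Without the 4 arrays 2 of the 20 adipocyte probes, both of CIDEA, passed as lower in Hereford (10%, against 1.83% of all probes). Over all probes 54.8% of the differences were positive. Of the smooth muscle markers (such as MYH11 and ACTA2) 18 of 18 probes were positive, with a median of 0.327. The log2 of their summed level was higher in Hereford in IMF (8.34 to 10.19, against 8.22 to 9.10), SC (4.93 to 8.45, against 4.76 to 5.05) and Omen (4.97 to 5.94, against 4.30 to 5.35) by the mean, but lower in Inter (4.82 to 6.12, against 5.61 to 6.19) and Kid (4.40 to 5.76, against 4.92 to 6.55). Macrophage markers (such as CSF1R and CD163) were negative at 17 of 18 probes, with a median of -0.309. Their summed level was 3.66 to 4.43 in Hereford and 4.65 to 5.55 in Angus in IMF, without overlap, and 5.75 to 6.27 against 6.11 to 8.08 in SC, whereas in Inter, Kid and Omen the means differed by -0.02, 0.03 and -0.01. T cell markers had a median of -0.202, with 2 of 19 probes positive, and Schwann cell markers one of 0.236, with 18 of 19 positive. Of all single probes, 6.67% did not overlap in IMF, 3.87% in SC and 2.21% in Inter. The summed levels, of 13 lists in each of 5 depots, did not overlap in 4 further cases, which were not tested. In Inter those of tendon markers were 1.29 to 2.17 in Hereford and 2.21 to 6.76 in Angus, and those of erythroid markers 3.50 to 3.67 and 3.86 to 4.44. In SC those of endothelium were 7.22 to 7.58 in Hereford and 6.72 to 7.05 in Angus, and those of T cells 5.17 to 5.33 and 5.01 to 5.13. The part of these cells in the breed differences was not tested. The adipocyte markers, which check the label, were bright in both breeds and all depots, with summed levels of 7.55 to 10.17 in Hereford and 8.41 to 10.12 in Angus. Skeletal muscle markers were highest in IMF (11.11 to 12.50 in Hereford and 11.55 to 12.65 in Angus) and reached 5.83 at most in the other depots.

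Within single depots, with 4 arrays against 4, few probes passed the limma test. In IMF 1 probe passed (0.00292%), while 2283 of all 34227 (6.67%) did not overlap. In Omen 1 probe passed (0.00292%) and 1687 (4.93%) did not overlap. None passed in SC, Inter or Kid (0% each), where 1325 (3.87%), 758 (2.21%) and 648 (1.89%) did not overlap. At an unadjusted p under 0.05 the limma test gave 4178 probes in IMF, 2049 in SC, 1184 in Inter, 1187 in Kid and 2822 in Omen. The methods' t-test (equal variance) gave 0 in each of the 5 depots after adjustment. Of the 194 probes that passed over the 5 depots, 83 did not overlap in IMF, 89 in Omen, 24 in SC, 26 in Inter and 18 in Kid, which their choice on the same arrays affects. Their median absolute difference was 0.69 in IMF and 0.70 in Omen, and 0.44 to 0.49 in SC, Inter and Kid. Over all probes it was 0.21 in IMF, 0.15 in SC, 0.14 in Inter, 0.19 in Kid and 0.20 in Omen.

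CYSLTR2, a receptor for cysteinyl leukotrienes, was the probe that passed in IMF. Its Hereford levels there were -1.87, -1.92, -1.81 and -1.89 and its Angus levels -3.35, -3.69, -3.56 and -3.28. The Hereford arrays were above all Angus arrays by more than the spread of either breed. The difference in IMF was 1.60 ± 0.13 (limma, adjusted p = 0.039). In Omen it was 1.71, from 4 Hereford and 3 Angus arrays because the scanner had marked 1 spot as an outlier, and it was 0.09 in Kid. Over the 5 depots it was 0.85 ± 0.22 and did not pass (limma, adjusted p = 0.057). The second CYSLTR2 probe differed by 0.12. The probe that passed in Omen was A_73_P251776, of the same transcript (NM_001111069) as a ULBP3 probe, at -0.62, 0.27, 0.17 and -0.52 in Hereford and at -6.10, -4.61, -5.74 and -4.81 in Angus, a difference of 5.14 ± 0.37 (limma, adjusted p = 0.0069). A_73_P251776 was well above background on 18 Hereford and 14 Angus arrays. Over the 5 depots it differed by 3.41 ± 0.59 (limma, adjusted p = 0.00083), by 1.89 with normexp, and by 4.42 without the 4 arrays. In those, its level was -0.14 and -0.50 on the arrays labelled Angus and -5.02 and -6.45 on the arrays labelled Hereford.

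Whether the breed difference depended on the depot was tested for each probe. None of the 34227 probes passed the limma F test (0%), and 2967 had an unadjusted p under 0.05. With the slide as a fixed block 16 probes passed. Without the 4 arrays 1 probe passed (0.00292%), that of ABR, a GTPase-activating protein. ABR had the smallest adjusted p with all arrays as well (0.092, limma). Its difference was -0.43 in IMF and -0.34 in Inter, and 1.15 in Kid and 0.67 in Omen. In Kid the ABR levels were -3.29 to -2.30 in Hereford and -4.04 to -3.38 in Angus, without overlap. TSPAN16, a tetraspanin, was at -1.06 in IMF and at 1.0 in Kid and 0.88 in Omen, and ARHGEF17, a guanine nucleotide exchange factor, at 0.77 in IMF and -0.53 in Kid. ATRN ran from -0.40 in SC to 0.55 in Kid, and MAP3K11, a kinase of the JNK pathway, from -0.44 in Inter to 1.01 in IMF. The adjusted p of these 4 was 0.38 (limma).

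The LD arrays are of muscle and do not enter the fits above. On supplement, the LD of 4 Hereford and 4 Angus steers, which are other animals than those of the fat arrays, differed at 6774 probes (19.8%), but each breed was on a slide of its own, and slide and breed cannot be told apart. Of the 194 fat probes 127 had the same sign there (65.5%, against 50.9% of all probes), 34 passed in the same direction and 4 in the opposite one. Of all 34227 probes 3255 passed with the sign they had in fat and 3519 with the opposite one. BOLA-DQB differed by 5.58 (limma, adjusted p = 0.051), ULBP3 by 1.49 (limma, adjusted p = 0.069), A_73_116304 by 3.00 (limma, adjusted p = 0.0023) and BCL2L14 by -1.86 (limma, adjusted p = 0.02). The PI3 probe A_73_P035216 was at -1.87 (limma, adjusted p = 0.013), whereas LOC533657 was at -0.56 and CHST13 at -0.33.

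On pasture the LD of 8 Hereford and 8 Angus arrays differed at 3104 probes (9.07%). By the study's methods some LD samples are of an earlier slaughter, which the labels used here do not give per sample and the fit does not separate. The LD score was taken over the probes that passed in fat and differed by more than 1, around the mean of the Hereford and Angus LD arrays on supplement. Here the 4 arrays labelled Angus on slide 23 had breed scores of 0.37 to 0.58 and the 4 labelled Hereford on slide 24 scores of -0.56 to -0.31, on the side of the other breed, while all other LD arrays of these breeds went with their labels. Without both slides 12230 probes passed (35.7%), where all Angus arrays were on slide 2 and slide and breed cannot be told apart, and with the slide as a random block 21 did. BOLA-DQB differed by 1.74 on pasture (limma, adjusted p = 0.56) and by 7.70 without these slides, and ULBP3 by 0.28 and 3.50. Since both slides were left out for their score on such probes, the larger differences and counts without them are built in and are not independent support. A_73_P251776 was at -0.41 to -5.63 on slide 23 and at -5.44 to -7.11 on slide 24. Whether the labels of these 2 slides are right was not tested.

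By their order in the RefSeq annotation of the ARS-UCD2.0 assembly, 99 of the 102 genes could be placed, and 16 of them (16.2%) had another of these genes among the 5 genes on either side, against 8.68% of all 10573 placed genes. The pairs were BOLA-NC1 with BOLA, SQSTM1 with LTC4S, CHST13 with C22H3orf22, LOC533657 with KYAT3, FADS2 with CSKMT, CBLL1 with DLD, TYW3 with CRYZ, and MCM10 with FRMD4A. SQSTM1 and LTC4S were both lower in Hereford, and so were TYW3 (-0.46) and CRYZ (-0.61). LOC533657 (2.29) and KYAT3 (0.70) were both higher, as were CHST13 (0.97) and C22H3orf22 (0.43) and MCM10 (1.16) and FRMD4A (0.33), whereas CBLL1 (-0.79) and DLD (0.66) differed in sign, and so did FADS2 (0.54) and CSKMT (-0.50). These pairs were looked at after the values were known, and the share was not tested.

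**Figure D5:**
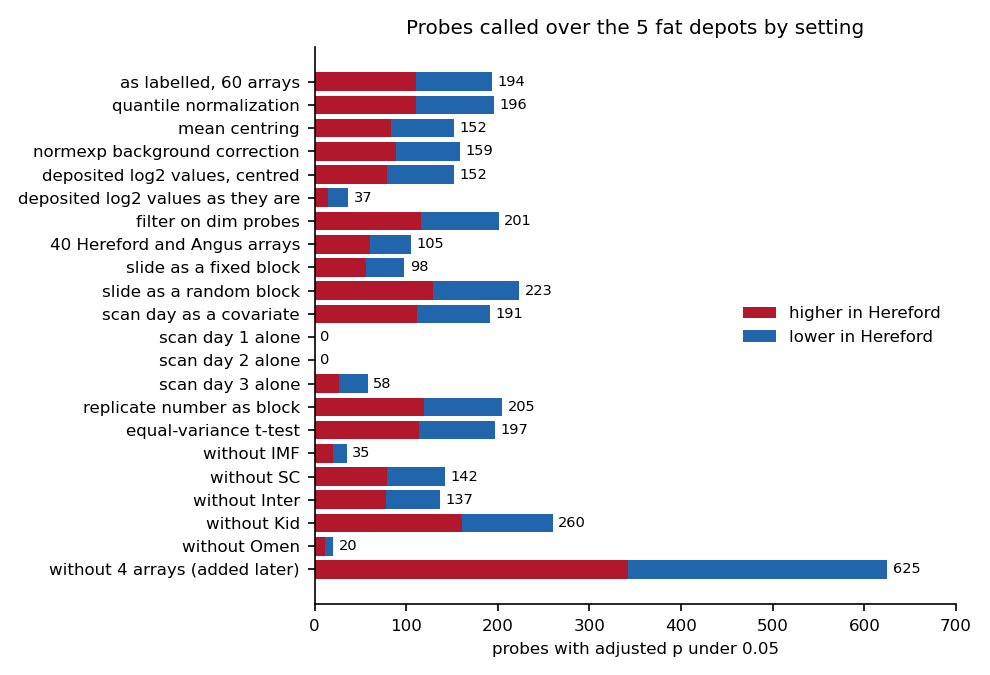
Number of probes with an adjusted p under 0.05 over the 5 depots (horizontal axis) by setting of the analysis, with those higher in Hereford in red and those lower in blue. With all arrays as labelled 194 passed, with the slide as a fixed block 98, without IMF 35, without Omen 20, and without the 4 arrays that lie with the other breed or depot 625.

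The number of probes past the test depended on the depots and arrays included. Of the 34227 probes 35 passed without the IMF arrays, 20 without Omen, 142 without SC, 137 without Inter and 260 without Kid. It also changed with single arrays, with 302 and 295 probes when the Inter Angus array at slide 4, position 3 or the Kid Hereford array at slide 21, position 1 was left out and 134 when the IMF Hereford array at slide 9, position 3 was. With the slide as a fixed block 98 probes passed, of which 78 were among the 194. Within the scan days, which held different depots (all IMF arrays were of day 3 and all Inter arrays of day 2), 0, 0 and 58 probes passed. At an unadjusted p under 0.05 there were 3287 over all days.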

How the data were processed

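Total RNA of each sample was hybridised in 1 colour to the Agilent bovine 4x44K array. The deposited scanner output holds an intensity per spot (the processed signal, with the background subtracted by the scanner software and no scaling between arrays) and flags. A matrix of log2 values for 34227 probes was likewise deposited by the authors. It equals log2 of the median signal minus the local background, gave the probes tested and served as an alternative. Spots flagged as outliers were left out, so that a fit uses the remaining arrays of that probe. From log2 of this signal the 75th percentile of each array was subtracted, and no dim probes were removed. The number of arrays limits the precision. Probes were named by RefSeq accession (19903 probes) and by the symbols the study lists (4446), which gave 21445 probes (62.7%) and 10653 genes a name.

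Breed (3 levels) and depot were fitted over the 60 fat arrays with limma 3.58.1 in R 4.3.3 (data.table package, version 1.17.8), and the contrast was Hereford minus Angus. Each depot was fitted on its 8 arrays, and the dependence on depot by the interaction. The Benjamini-Hochberg adjustment covered the 34227 probes, with a threshold of 0.05. The methods were tested on simulated data with independent arrays, so that the sharing of steers across depots was not covered. Python 3.11.15 served for scores and figures, with matplotlib 3.10.9, scipy 1.17.1, pandas 2.3.3 and numpy 2.4.6. The genes named are the 12 highest and 12 lowest differences that passed, with the same sign in all 5 depots and well above background on 10 of the 20 arrays of a breed, up to 4 members of each list that passed, the 5 smallest p-values for dependence on depot, and in each depot the highest and lowest difference that passed without overlap. Others are said to be chosen after their values were seen or are list members. For the 12 highest and lowest, the probe with the largest difference among those that met these conditions was taken for each gene, so that a probe that did not pass can differ by more. The comparison, the lists and the rule were chosen with earlier results of these data known. Alternatives were another normalization (quantile, mean centring, normexp with an offset of 50, the deposited log2 values), other probes, arrays or depots, the slide, the replicate number or the scan day in the model, an equal-variance t-test, and leaving out each array. Results of some genes, and of a list that rests on them, are not reported here.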

Additional observations from a re-analysis of the deposited data

Results flagged for a closer look

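For the genes with the 12 highest and 12 lowest values and for the breed score, 250 groups of 4 arrays of 1 breed and depot were examined. An array was flagged if its distance to the nearest other array, as a share of the group's range, exceeds Dixon's critical value. With independent normal values about 1 in 20 groups would pass, and 24 did, all of them of genes. The groups reuse the same arrays for genes chosen by their differences, so the 24 cannot be set against that rate. BOLA-DQB had such an array in Kid (-8.26) and in IMF (-8.61) of Hereford, far below the other 3. ULBP3 had one in Hereford Kid (-3.55) and in Angus Kid (-1.45), IMF (-1.57) and SC (0.78). The Kid Hereford arrays of BOLA-DQB and ULBP3 and the SC Angus array of ULBP3 are among the 4 arrays that lie with the other breed or depot. In Angus Omen the lowest arrays of BOLA-NC1 (1.37), BOLA (2.53) and LOC533657 (-5.21) were apart. ULBP27 was apart at -2.71 in Hereford Inter and at -2.33 in Hereford IMF.

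Of the other genes higher in Hereford, CHST13 had an array apart in Angus Kid (-5.97), VIT in Hereford SC (-4.26), PTPRK in Hereford IMF (-3.56) and CHST12 in Angus IMF (-0.72). Of those lower in Hereford, DBIL5 had one in Angus Inter (-8.09) and Angus SC (-3.35), TEX12 in Angus Kid (-3.02), ALDH5A1 in Angus Kid (-5.01) and Angus IMF (-4.80), CBLL1 in Hereford IMF (-2.12), LTC4S in Angus SC (-2.19), APLP1 in Angus Kid (-0.50) and NMRAL1 in Hereford SC (2.33). The values are levels in log2, and their causes were not tested.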

How the results depend on the processing

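Over the 5 depots 194 probes passed, 111 higher and 83 lower in Hereford. The count was 196 with quantile normalization, 152 with mean centring, 159 with normexp, 223 with the slide as a random block, 191 with scan day as a covariate and 197 with the t-test. It was 37 with the deposited log2 values as they are (15 higher and 22 lower, another split), 105 with the 40 Hereford and Angus arrays alone, 98 with the slide as a fixed block, 0, 0 and 58 within the 3 scan days, 35 without IMF, 20 without Omen and 625 without the 4 arrays that lie with the other breed or depot. Leaving out 1 array gave 134 to 302. Of the 36 named probes that passed, 35 still passed with quantile normalization, 28 with normexp, 17 with the deposited values as they are, 22 with the 40 Hereford and Angus arrays alone, 20 with the slide as a fixed block, 16 without IMF, 26 without SC, 26 without Inter, 25 without Kid, 9 without Omen, 0, 0 and 10 within the scan days, 27 to 36 without 1 array and 36 without the 4 arrays, where this is built in. Within scan day 1 alone TYRP1 (0.00301), BCL2L14 (0.0804) and CBLL1 (0.0277) had the other sign. The Hereford and Angus arrays of scan day 1 were of SC and Kid alone, with both SC arrays that lie with the other breed. All IMF arrays were of day 3 and all Inter arrays of day 2, so that scan day and depot are in part confounded. Single scan days and depots also hold fewer arrays, and the cause of these changes was not tested.

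In IMF 1 probe passed, 0 with the deposited values, all non-control probes, the replicate block or the t-test, 8 with 12 arrays and 15 with the spread of 60 arrays, and 0 to 33 without 1 array (33, 13 and 4 without the Angus arrays at slide 18, position 1, slide 8, position 1 and slide 18, position 2). In Omen 1 passed, 2 with quantile normalization or normexp, 8 with mean centring, 4 with the deposited values or 12 arrays, 0 with the replicate block or the t-test, and 1 to 5 without 1 array (5 without the Angus array at slide 11, position 3). In Inter and in Kid 1 passed without the array that lies with the other breed or depot, and 0 to 1 without any 1 array in SC, Inter and Kid. For dependence on depot 2 passed with normexp, 16 with the slide as a fixed block, 1 without the 4 arrays and 0 to 6 without 1 array (6 without the IMF Hereford array at slide 9, position 2). In LD it was 4130 to 6684 on supplement and 2249 to 2970 on pasture without 1 array, and on pasture 12230 without the 2 slides and 21 with the slide as a random block.

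The replicate numbers of the labels equal the slide position in all 96 arrays. A number can recur within 1 breed and depot, as number 1 does among the Angus SC arrays (slides 16, 17 and 19), so that it does not name a steer. The correlation of deviations was 0.01 (median of 173 pairs) for the same number and -0.005 (547 pairs) for others. It cannot decide the pairing, since how far arrays of the same steer correlate by it is unknown. With the replicate block 205 probes passed over the 5 depots.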
